A study of Homo sapiens with 2 samples.

Results

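The NF-κB family has 5 subunit genes, NFKB1, NFKB2, REL, RELA and RELB, and all 5 were found by name among the 16251 genes of the deposited count matrix. Their transcripts were measured in the human breast cancer cell line MDA-MB-453, which the labels call triple-negative, in 1 culture given water as vehicle and 1 culture given the inflammatory cytokines IL1β and TNFα at 10 ng/ml. By the labels and the methods both cultures were sampled after 24 hours, although a figure legend of the study gives a longer time, and single-cell RNA was counted from its 3′ end by unique molecular identifiers (UMIs), so that each UMI stands for 1 captured molecule. The study asked what distinguishes the cells that express TDO2, an enzyme of tryptophan breakdown, when cytokines activate NF-κB. The vehicle library held 2822 cells and 58587996 UMIs, and the cytokine-treated library held 3163 cells and 69592446 UMIs.

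NF-κB subunits act as dimers that bind κB sites in DNA. RELA, REL and RELB carry transactivation domains, whereas NFKB1 and NFKB2 encode precursor proteins that are processed into DNA-binding subunits without one. In the canonical arm, IL1β or TNFα activates the IκB kinase (IKK) complex, IκB proteins are degraded, and dimers of RELA with the NFKB1 product enter the nucleus from a stored pool. In the non-canonical arm, which answers to receptors such as that for lymphotoxin, the kinase encoded by MAP3K14 drives processing of the NFKB2 precursor, and the product pairs with RELB. Transcript counts say nothing of protein level, processing or nuclear entry.

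In GRCh38 (GENCODE annotation), NFKB1 (ENSG00000109320) lies on the plus strand of chromosome 4 from 102501330 to 102617302 and NFKB2 (ENSG00000077150) on the plus strand of chromosome 10 from 102394110 to 102402524. REL (ENSG00000162924) lies on the plus strand of chromosome 2 from 60881491 to 60931612, RELA (ENSG00000173039) on the minus strand of chromosome 11 from 65653599 to 65663090, and RELB (ENSG00000104856) on the plus strand of chromosome 19 from 45001461 to 45038192. REL overlaps 2 annotated genes on its own strand, ENSG00000267520 and RNU4-51P, so reads in the overlap are uncertain. RefSeq promoter windows (GRCh38.p14, 250 bases before to 50 after a start site) were at hand for 4 of the 5 subunits, 8 windows in all, and RELB had no entry. Each was searched on both strands for the 10-base κB consensus. The sites are shown because NF-κB dimers bind such sequences, and their part in the differences between the libraries was not tested. The κB match is in capitals, 5′ to 3′ on the plus strand.
NFKB1, chr4:102501300-102501329: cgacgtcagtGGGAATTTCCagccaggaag
NFKB2, chr10:102394462-102394490: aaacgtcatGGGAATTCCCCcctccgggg
NFKB2, chr10:102394490-102394519: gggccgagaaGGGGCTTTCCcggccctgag
NFKB2, chr10:102395505-102395562: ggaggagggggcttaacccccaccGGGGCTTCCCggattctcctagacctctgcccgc
NFKB2, chr10:102395674-102395703: tggtattttcGGGACTTTCCtaagctgctc
REL, chr2:60881518-60881546: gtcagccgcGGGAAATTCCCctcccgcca
The NFKB1 match began 49 bases before its start site, upstream of every annotated transcript. The NFKB2 matches began 107, 78, 176 and 21 bases before the start sites of their windows, the one at 176 in an intron and the others in an exon of at least 1 transcript. The REL match began 47 bases before its start site, in an exon of at least 1 transcript. At the first NFKB2 site and the REL site, 2 matches on opposite strands overlapped. Neither RELA window held a match. Of the 4 subunit genes with a window, 3 held a match. The κB consensus was present in 11.3% of 35116 RefSeq windows of this length, and in at least 1 window of 13.3% of 27305 genes. A match of letters does not show that a site was bound. RELB, the subunit with the largest difference between the libraries, could not be searched.

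The subunits of the non-canonical dimer, NFKB2 and RELB, had far more UMIs in the cytokine-treated library, REL had more by a smaller factor, and NFKB1 and RELA were at nearly equal CPM in both libraries. Levels are UMIs per 1000000 UMIs of the library (CPM), with exact 95% Poisson intervals, and ratios have exact conditional binomial intervals. With 1 library per condition no test was possible, and the intervals describe counting error, while the spread between cultures is unknown. In a culture, more expressing cells and more RNA per cell cannot be told apart from a summed level, so counts per cell are given further on.

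RELB, the partner of the processed NFKB2 product, had 17 UMIs in vehicle cells, which is 0.290 CPM (0.169 to 0.465), and 1972 UMIs in cytokine-treated cells, which is 28.3 CPM (27.1 to 29.6). This was a 97.7-fold difference (60.8 to 168), with a log2 ratio of 6.61 (5.93 to 7.39). NFKB2 was at 3.77 CPM (221 UMIs, 3.29 to 4.30) and at 42.6 CPM (2968 UMIs, 41.1 to 44.2), an 11.3-fold difference (log2 ratio 3.50, 3.30 to 3.70). From the fifth subunit in order of level in the vehicle library, RELB became the second, and NFKB2 became the first. In both genes the intervals of the libraries lay far apart.

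REL, which encodes c-Rel, a subunit best known from lymphoid cells, was at 3.29 CPM (193 UMIs, 2.85 to 3.79) and at 8.56 CPM (596 UMIs, 7.89 to 9.28). Its 2.60-fold difference (log2 ratio 1.38, 1.14 to 1.62) left it the least abundant subunit in the cytokine-treated library. NFKB1, the precursor gene of the canonical arm, was at 21.8 CPM (1277 UMIs, 20.6 to 23.0) and 23.4 CPM (1629 UMIs, 22.3 to 24.6). RELA, the main activating subunit of the canonical arm, was at 22.3 CPM (1308 UMIs, 21.1 to 23.6) and 21.3 CPM (1481 UMIs, 20.2 to 22.4). The log2 ratios were 0.10 for NFKB1 (-0.00 to 0.21) and -0.07 for RELA (-0.18 to 0.04), and both intervals included 0. With other scalings some intervals left 0. NFKB1 was at 0.28 with TMM (0.17 to 0.39) and at 0.30 with DESeq2 size factors (0.19 to 0.40). The RELA ratio changed sign to 0.11 with TMM (-0.00 to 0.22), 0.12 with DESeq2 size factors (0.02 to 0.23) and 0.05 in cells called G1, and was -0.12 (-0.23 to -0.01) with totals that leave out ribosomal and mitochondrial genes. TMM and DESeq2 scaling raise every log2 ratio by 0.18 and 0.19, and the median over all measured genes was -0.20 before that shift.

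**Figure D1:**
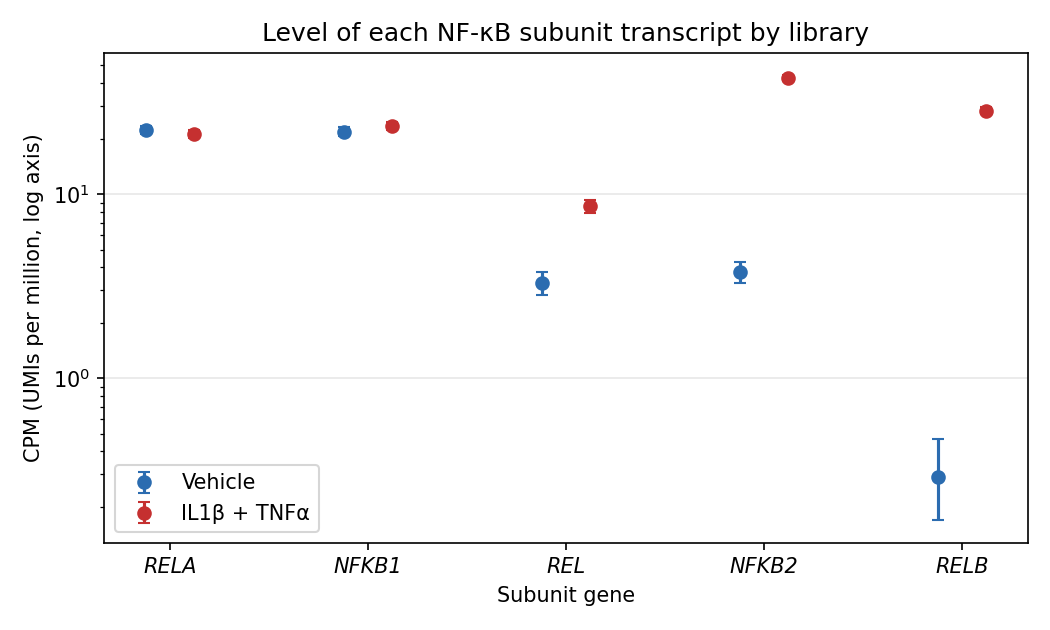
Level of each NF-κB subunit transcript (x axis) in CPM on a log axis in the vehicle library (blue) and the library treated with IL1β and TNFα (red), with exact 95% Poisson intervals. RELA and NFKB1 stood between 21.3 and 23.4 CPM in both libraries, while RELB stood at 0.290 and 28.3 and NFKB2 at 3.77 and 42.6 CPM; the sign of the RELA difference depends on the scaling.

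Among 9192 measured genes, those that reached CPM 5 in either library, RELB ranked 22, NFKB2 ranked 64 and REL ranked 247 by log2 ratio. These 3 of the 5 subunits were at least 2-fold higher with the interval on the same side, against 4.29% of measured genes, and 0 were at least 2-fold lower, against 7.48%. RELB, NFKB2 and REL reached CPM 5 in the cytokine-treated library alone, so they could count as measured only by being higher there. The median log2 ratio of the 5 was 1.38.

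The make-up of the subunit transcript pool therefore differed between the libraries. Counting at 3′ ends does not scale with transcript length, although capture can differ between genes. Summed over the 5 genes the level was 51.5 CPM (3016 UMIs) in the vehicle library and 124 CPM (8646 UMIs) in the cytokine-treated library, 2.41-fold more (log2 ratio 1.27, 1.21 to 1.33). In the vehicle library RELA gave 43.4% of these UMIs (exact binomial interval 41.6 to 45.2) and NFKB1 42.3%, while NFKB2 gave 7.33%, REL 6.40% and RELB 0.564%. In the cytokine-treated library NFKB2 gave 34.3% (33.3 to 35.3) and RELB 22.8% (21.9 to 23.7), while NFKB1 gave 18.8%, RELA 17.1% and REL 6.89%. NFKB2 and RELB together thus gave far less than RELA and NFKB1 in the vehicle library and more than them in the cytokine-treated library, and the part of REL differed by less than its interval.

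**Figure D2:**
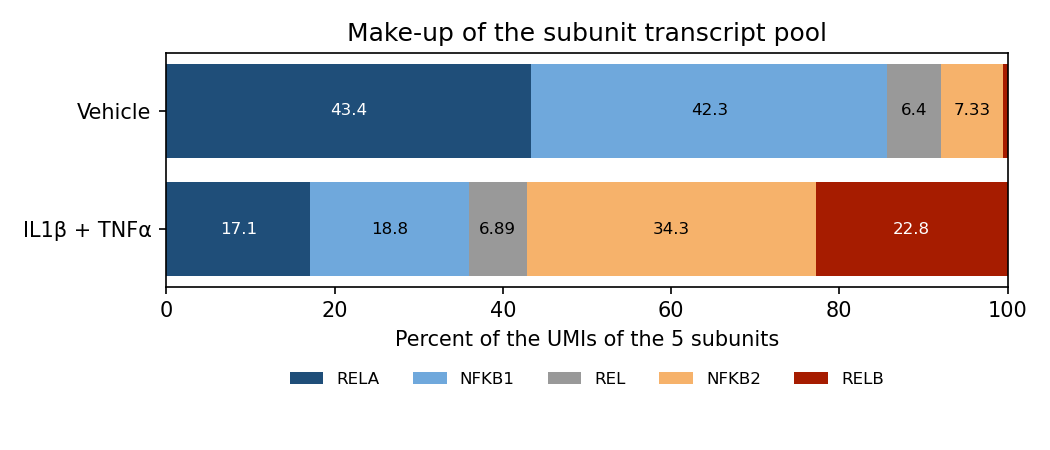
Percent of the UMIs of the 5 subunits (x axis) that came from each subunit (colours) in the vehicle library (3016 UMIs) and the library treated with IL1β and TNFα (8646 UMIs). RELA and NFKB1 gave 43.4 and 42.3% in the vehicle library, and NFKB2 and RELB gave 34.3 and 22.8% in the cytokine-treated library.

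To compare single cells at equal depth, cells were thinned to 15000 UMIs each. In this way 2586 vehicle and 3033 cytokine-treated cells could be used, and 236 and 130 shallower ones were left out. RELB was found in 0.425% of vehicle cells and 33.0% of cytokine-treated cells, and NFKB2 in 5.07% and 44.9%. Without thinning these shares were 0.602% and 44.4% for RELB and 7.19% and 56.6% for NFKB2, at median depths of 20249 and 21508 UMIs per cell. REL was found in 4.72% and 12.2% of thinned cells (6.66% and 16.9% without thinning), NFKB1 in 28.2% and 30.5% (35.9% and 40.2%) and RELA in 28.1% of both (36.5% and 37.5%). No cell type that lacks these genes was present to give the background from free RNA, and a cell without a UMI can still express the gene.

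The UMIs of most subunits were spread over cells about as evenly as random sampling gives. The variance over the mean of thinned counts was between 0.97 and 1.02 for NFKB1, REL and RELA in both libraries. It was 1.20 for NFKB2 and 1.09 for RELB in cytokine-treated cells, and 1.11 for NFKB2 in vehicle cells. At means of at most 0.359 UMIs per cell for NFKB1, REL and RELA, this measure stays near 1 even where cells differ in level. It therefore cannot show that their levels were equal between cells. NFKB2 was found in 44.9% of cytokine-treated cells where an even (Poisson) spread of its UMIs would give 47.4%, and RELB in 33.0% where it would give 34.0%. Before thinning, the highest count in a cytokine-treated cell was 10 UMIs for NFKB2 and 5 UMIs for RELB, whereas no vehicle cell had more than 1 RELB UMI. The higher RELB and NFKB2 levels thus came from many cells with 1 or 2 UMIs rather than from a few cells with many.

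**Figure D3:**
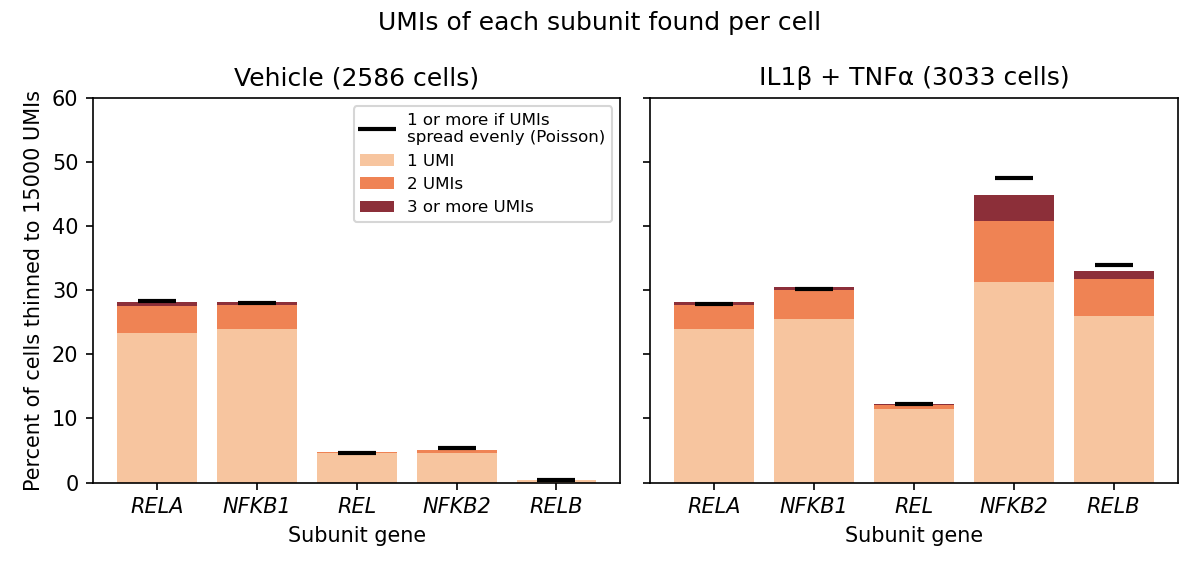
Percent of cells thinned to 15000 UMIs (y axis) with 1, 2 or 3 and more UMIs of each subunit (x axis, stacked bars) in the vehicle (left) and cytokine-treated (right) library, with a black mark where an even spread of the UMIs would put the top of the bar. The NFKB2 bar ended at 44.9% below its mark at 47.4% in cytokine-treated cells, and the RELA bar ended at 28.1% in both libraries.

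No subunit was found in 47.2% of thinned vehicle cells and in 16.8% of cytokine-treated cells, and the mean number of different subunits found per cell was 0.665 and 1.49. All 5 were found together in 13 cytokine-treated cells (0.429%) and in 0 of 2586 vehicle cells, which allows a share of up to 0.116% by 3 counts of the total and 0.143% by the two-sided exact interval. The dimer partners NFKB2 and RELB were found together in 15.7% of cytokine-treated cells (14.4 to 17.1), and the product of their shares was 14.8%. For REL and RELB the values were 4.58% and 4.02%, for NFKB2 and REL 6.20% and 5.48%, and for the canonical partners NFKB1 and RELA 9.00% and 8.57%. In vehicle cells NFKB1 and RELA were found together in 8.55%, with a product of 7.93%. In both libraries the product lay inside the exact interval of the observed share for each of the 10 pairs. The product is built from shares of the same cells, so this interval cannot decide whether subunits were found independently of each other. Pearson r of the thinned counts in cytokine-treated cells was 0.099 for NFKB2 and RELB and 0.090 for NFKB2 and REL. For the other pairs it lay between -0.003 and 0.036.

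Cell cycle phase differed between the libraries by the deposited calls, with 36.6% of vehicle and 88.5% of cytokine-treated cells in G1, so each subunit was compared within a phase. Among G1 cells (1032 vehicle, 2799 cytokine-treated) the log2 ratio was 6.55 for RELB, 3.54 for NFKB2 (3.21 to 3.89), 1.25 for REL, 0.28 for NFKB1 (0.12 to 0.45) and 0.05 for RELA (-0.11 to 0.21). Among S phase cells (1273 and 324) it was 6.49 for RELB, 3.16 for NFKB2, 1.43 for REL, 0.27 for NFKB1 (0.03 to 0.50) and -0.35 for RELA (-0.63 to -0.08). RELB, NFKB2 and REL were thus higher in cytokine-treated cells of either phase. NFKB1 had an interval above 0 within both phases but not over all cells.

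NFKB1 was lowest in G1 cells of the vehicle library. It was there at 18.7 CPM in G1, 23.0 CPM in S (log2 ratio to G1 0.31, 0.12 to 0.49) and 24.4 CPM in G2M cells (0.39, 0.16 to 0.62). In cytokine-treated cells it was at 22.7 CPM in G1 and 27.7 CPM in S (0.29, 0.07 to 0.51). RELA in the vehicle library was at 20.7 CPM in G1, 24.4 CPM in S (0.23, 0.05 to 0.41) and 20.1 CPM in G2M. NFKB2 in the vehicle library was at 3.69 CPM in G1 and 2.23 CPM in G2M on 25 UMIs (-0.72, -1.44 to -0.05). For REL and RELB every interval of a phase ratio included 0 in both libraries. Median depth was 18486 UMIs in vehicle G1 cells, 21047 in S and 21756 in G2M cells. At equal depth of 15000 UMIs the NFKB1 ratios in vehicle cells were 0.37 (0.15 to 0.61) in S and 0.39 in G2M cells. The interval then included 0 for NFKB1 in cytokine-treated S cells (0.21, -0.06 to 0.48) and for NFKB2 in vehicle G2M cells (-0.59, -1.58 to 0.32), and it lay above 0 for NFKB2 in vehicle S cells (0.69, 0.14 to 1.27).

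The authors' 6 clusters, which both libraries shared, differed in the level of NFKB2 and RELB after cytokine treatment. NFKB2 was at 31.9, 32.1, 35.5 and 39.1 CPM in clusters 4, 5, 0 and 2, at 49.9 CPM in cluster 3 (46.3 to 53.7) and at 54.4 CPM in cluster 1 (50.8 to 58.1). The highest was 1.71-fold the lowest (1.46 to 1.99), and each neighbour in this order overlapped the next except clusters 2 and 3. RELB ran from 21.8 CPM in cluster 5 (16.4 to 28.4) and 23.6 CPM in cluster 0 to 31.8 CPM in cluster 1 and 32.3 CPM in cluster 3 (29.4 to 35.4) and the intervals of neighbours in this order overlapped. REL ran from 6.43 CPM in cluster 4 to 11.1 CPM in cluster 1, 1.72-fold. Clusters 1 and 3 were thus at the upper end for NFKB2 and RELB, and cluster 1 for REL.

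NFKB1 and RELA had another order. After cytokine treatment NFKB1 was lowest in cluster 3 (19.0 CPM) and highest in cluster 2 (30.6 CPM), 1.62-fold (1.34 to 1.95), and 1.06% of the cytokine-treated cells of cluster 2 were called G1. RELA lay between 18.8 and 24.2 CPM, and the interval of that ratio included 1 (0.931 to 1.77). In the vehicle library both were lowest in cluster 5 and highest in cluster 1, NFKB1 at 17.1 and 25.1 CPM and RELA at 18.2 and 25.5 CPM. This order did not hold among vehicle G1 cells alone. There NFKB1 was highest in cluster 4 (22.3 CPM), and RELA was highest in cluster 0 (22.4 CPM) and lowest in cluster 3 (19.2 CPM). Over all phases RELB had between 1 and 6 UMIs per cluster in the vehicle library, so no order could be read. Whether these genes were used to make the clusters is not given in the sources used here, so cluster levels are a description.

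Within each of the 6 clusters the cytokine-treated over vehicle log2 ratio was between 3.14 and 3.68 for NFKB2, between 5.74 and 8.07 for RELB and between 1.10 and 1.70 for REL. The highest RELB ratios, in clusters 3 (7.96, 5.48 to 13.3) and 4 (8.07, 5.57 to 13.4), each rested on 1 vehicle UMI. For NFKB1 the log2 ratio was between -0.06 and 0.48 and for RELA between -0.22 and 0.41. Among G1 cells alone the NFKB1 ratio ran from 0.14 in cluster 4 (-0.25 to 0.54) to 0.60 in cluster 5 (0.03 to 1.17). Its interval lay above 0 in clusters 0 and 5 and included 0 in clusters 1, 3 and 4. Cluster 2 had too few G1 cells. The part of phase in the cluster ratios was not tested.

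**Figure D4:**
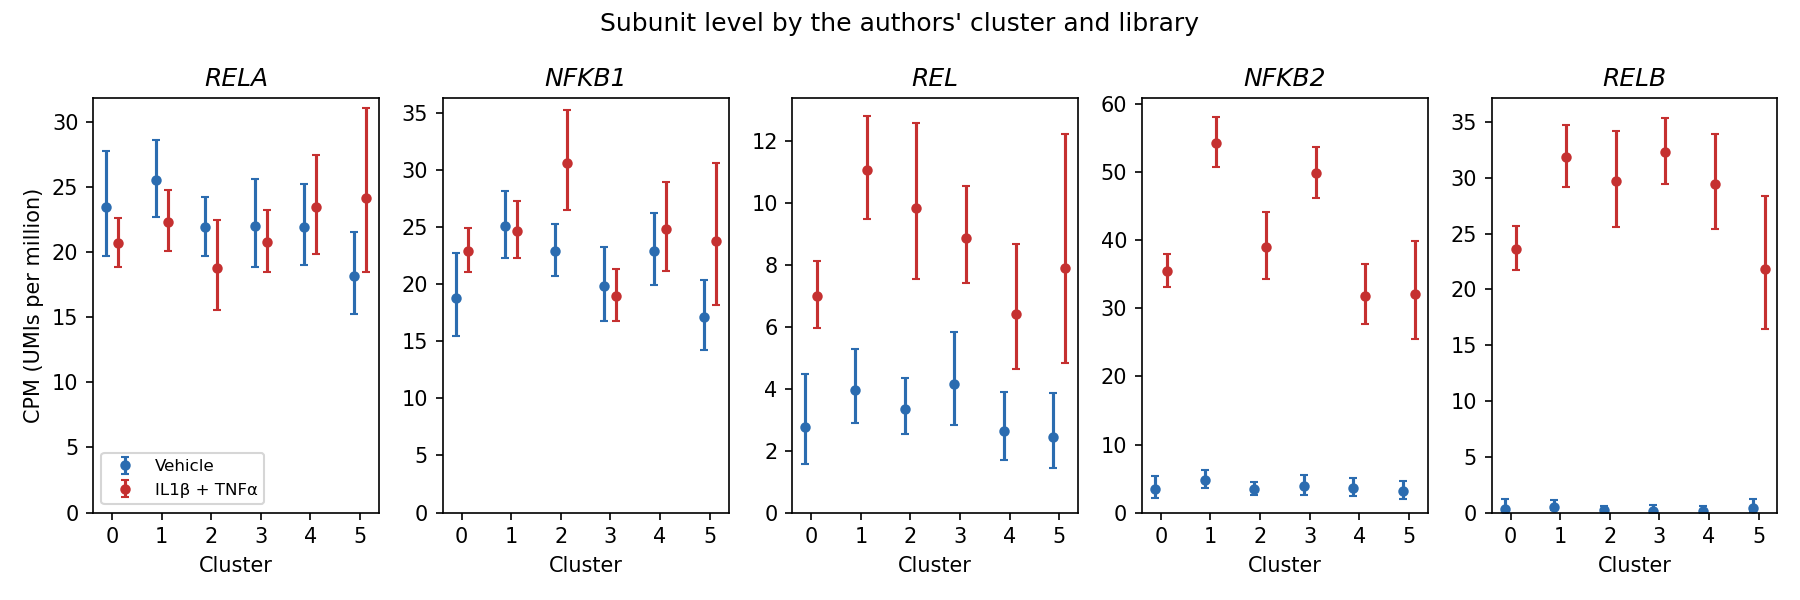
CPM of each subunit (y axis, from 0) in the authors' clusters 0 to 5 (x axis) in vehicle (blue) and cytokine-treated (red) cells, with exact 95% Poisson intervals. Cytokine-treated cells lay above vehicle cells in all 6 clusters for REL, NFKB2 and RELB, with NFKB2 between 31.9 and 54.4 CPM, while the libraries interleaved for RELA and NFKB1.

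TDO2 itself was at 9.30 and 563 CPM, and cells were divided by whether they held a TDO2 UMI after thinning. Of the cytokine-treated cells 2069 held one and 964 did not. NFKB2 was at 39.9 CPM in cells with a TDO2 UMI and at 49.2 CPM in cells without (log2 ratio -0.30, -0.44 to -0.17). RELB was at 26.1 and 31.1 CPM (-0.25, -0.42 to -0.08). For NFKB1 (-0.15), RELA (-0.12) and REL (0.08) the intervals included 0. Both subunits with a wide difference between the libraries thus had slightly lower levels in the cells with TDO2, and in G1 cells alone the ratios were -0.31 for NFKB2 and -0.30 for RELB.

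Clusters differed in TDO2 as well, with a TDO2 UMI in 55.0% of thinned cytokine-treated cells in cluster 1, where NFKB2 was highest, and 78.4% in cluster 0. In cluster 5 only 25 cells lacked a TDO2 UMI, so it was left out of the comparison within clusters. NFKB2 was lower in cells with TDO2 in 4 of the other 5 clusters, with the interval below 0 in clusters 1 (-0.32) and 3 (-0.31), and at 0.35 in cluster 4 (-0.18 to 0.90). RELB was lower in 4 of these 5 clusters, with every interval including 0. RELA was also lower in cluster 1 (-0.39, -0.76 to -0.01), and its intervals in the other clusters included 0. In the vehicle library 105 cells held a TDO2 UMI and 2481 did not, and for all 5 subunits the interval of the ratio included 0 at this depth.

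**Figure D5:**
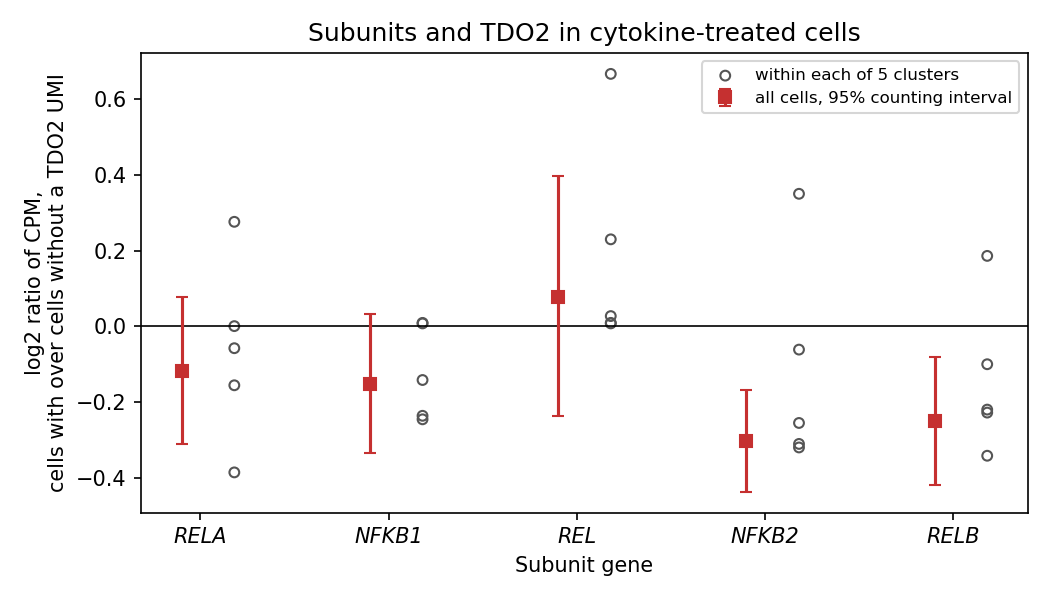
Log2 ratio of CPM in cytokine-treated cells with over cells without a TDO2 UMI (y axis) for each subunit (x axis), over all thinned cells with exact 95% intervals (red squares) and within each of the 5 clusters with at least 50 cells on both sides (open circles). The squares of NFKB2 (-0.30) and RELB (-0.25) lay below 0 with their intervals, and the intervals of NFKB1, RELA and REL included 0.

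The genes most like each subunit across cells were found by Pearson r of log-normalized values, among genes at CPM 20 or more in the library. NFKB2 in the 3163 cytokine-treated cells was most like BIRC3 (r = 0.23), which encodes an inhibitor of apoptosis and ubiquitin ligase of the non-canonical arm, followed by TRIM29 (0.17) and ANKRD22 (0.17). BIRC3 was the only gene of 4382 with r over 0.2, and its level by cluster was highest in cluster 1 (68.4 CPM), as for NFKB2. BIRC3 was lowest in clusters 0 (22.9 CPM) and 5 (23.4 CPM), whereas NFKB2 was lowest in cluster 4 (31.9 CPM). Within clusters the r of BIRC3 with NFKB2 was between 0.08 and 0.31. RELB was most like ANKRD22 (0.11), TMSB4X (0.11) and CCDC28B (0.11).

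For NFKB1 and RELA no gene exceeded 0.1 in either library. NFKB1 was led by BARD1, LASP1 and DIAPH1 in vehicle cells and by the histone gene HIST1H4C, RPLP1 and MYH9 in cytokine-treated cells, and RELA by SMIM1, TFF1 and RIBC2 in vehicle cells and AL139246.5, TES and AL118516.1 in cytokine-treated cells. These values describe cells of 1 library that share depth and phase, and no relation is read from r this low in sparse counts.

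Other genes of the pathway were taken from a list of 51 by role, of which 50 were in the matrix and 43 were measured. The list was chosen with earlier results of these data known, so its shares are a description and cannot show an excess. At least 2-fold higher were 8 of the 43 (18.6%, against 4.29% of all measured genes) and at least 2-fold lower 2 (4.65%, against 7.48%), with a median log2 ratio of -0.20, equal to the median over all measured genes. Of the 8, NFKBIZ, BIRC3 and LTB reached CPM 5 in the cytokine-treated library alone, so they could count as measured only by being higher there.

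Among genes of the IκB family, 3 of 5 measured were at least 2-fold higher, against 4.29% of all measured genes. Of these, NFKBIZ counted as measured only through the cytokine-treated library. NFKBIA, the main inhibitor of RELA dimers, was at 79.4 and 1069 CPM (13.5-fold), NFKBIZ, a nuclear IκB, at 2.07 and 12.1 CPM (5.84-fold) and NFKBIE at 5.87 and 24.1 CPM (4.11-fold). In the non-canonical arm 4 of 7 measured genes were at least 2-fold higher, against the same 4.29%. Among them BIRC3 and LTB counted as measured only through the cytokine-treated library. BIRC3 was at 0.410 and 39.1 CPM (95.5-fold), TRAF3, which keeps the MAP3K14 kinase low, at 10.1 and 25.0 CPM (2.48-fold) and TNFRSF12A, the TWEAK receptor, at 221 and 528 CPM (2.39-fold). LTB, which encodes lymphotoxin beta, a ligand of the arm, was without a UMI in vehicle cells and at 273 CPM in cytokine-treated cells. MAP3K14 stayed under the CPM limit at 1.50 and 4.08 CPM, and the lymphotoxin receptor gene LTBR was at 42.5 and 38.9 CPM.

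Genes for kinases and relay proteins upstream of the subunits were measured as well. None of the 3 IKK genes differed by 2-fold, with CHUK at 10.2 and 5.62 CPM, IKBKB at 12.3 and 10.7 CPM and IKBKG at 36.5 and 29.9 CPM. The IKK-related kinase gene IKBKE was 2.51-fold higher (12.6 and 31.7 CPM), and TBK1 was at 9.59 and 9.89 CPM. Of 8 measured relay genes 1 was at least 2-fold lower, the receptor-associated kinase gene IRAK1 (73.6 and 35.0 CPM, 2.10-fold). Of 4 importins, which carry proteins into the nucleus, 1 was at least 2-fold lower, KPNA2 (187 and 92.5 CPM, 2.02-fold). Neither stayed past 2-fold with TMM or DESeq2 scaling, which raise every log2 ratio by 0.18 and 0.19. The median log2 ratio was -0.35 over the relay genes and -0.72 over the importins, against -0.20 over all measured genes. Pathway genes were not compared within a phase, although 36.6% of vehicle and 88.5% of cytokine-treated cells were called G1. The part of phase in these differences was not tested. No gene of the ubiquitin ligase that marks IκB (4 measured), of the coactivators and corepressors (6) or of the modifiers of Rel proteins (4) differed by 2-fold.

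The material was checked against markers of its own and other cell types. All 10 luminal epithelial markers reached CPM 5, whereas the highest T, B or NK cell marker was at 0.244 CPM and the highest myeloid marker at 0.137 CPM, with 6 of 7 and 3 of 5 markers at 0 or not listed. Of 3 basal epithelial markers TP63 alone was listed, with vehicle cells at 0.529 CPM and cytokine-treated cells at 4.17 CPM, and its part in the results was not tested. COL1A1 alone of 5 fibroblast markers was seen, at 20.9 and 20.1 CPM. Only 8 barcodes occurred in both libraries, and median mitochondrial shares were 6.28% and 6.48%.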

How the data were processed

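Single cells of the human line MDA-MB-453 were profiled with a droplet 3′ UMI assay, 1 library per condition. Per the study's methods, the authors counted UMIs with Cell Ranger 3.1.0 on GRCh38 and kept cells in Seurat 4.0.4 with fewer than 50000 UMIs, between 3000 and 5000 genes and under 15% mitochondrial UMIs. The upper limit on genes can remove cells with much RNA in unequal numbers from the cultures. The deposited matrix holds raw counts of UMIs per gene and cell, and the deposited cell table gives library, UMI count, percent of mitochondrial UMIs, phase call and cluster number. The methods describe an integration of both samples for display, with sctransform and the S minus G2M score difference regressed out, and the phase gene lists and cluster resolution are not given in the sources used here. The 5985 cells were assigned to libraries by the cell table, and summed counts equalled its UMI counts in all of them. No step to find doublets was run here, and their part in the counts per cell was not tested.

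The 5 subunits, the pathway list, the markers and the rules were chosen with earlier results of these data known. Counts were summed per library and scaled to CPM in Python 3.11.15 (numpy 2.4.6, scipy 1.17.1, pandas 2.3.3). The vehicle and cytokine-treated libraries summed to 58587996 and 69592446 UMIs, with medians of 20249 and 21508 per cell. Intervals were exact 95% Poisson (CPM), Clopper-Pearson (shares) and conditional binomial (ratios). Genes at CPM 5 or more in either library counted as measured and were called when at least 2-fold apart with the interval on the same side. Groups under 50 cells were left out of comparisons by phase and cluster. Cells were thinned without replacement to 15000 UMIs. Likeness was Pearson r of ln(1 + 10000 × fraction of UMIs). From each pathway role up to 4 genes at least 2-fold apart were named, and for each subunit at CPM 20 or more the 3 genes of highest r; CHUK, IKBKB, IKBKG, TBK1, LTBR, MAP3K14 and COL1A1 were named for their role with their values known. Alternatives were TMM (edgeR 4.0.16 in R 4.3.3), DESeq2 1.42.0 size factors, library totals that leave out 92 ribosomal and mitochondrial genes, per-cell CPM averaged over cells, G1 cells, cells under 10% mitochondrial UMIs, CPM limits of 1 and 20 or none, thinning to 7500 UMIs or none, and at least 2 UMIs. No count test was run. The calling rule was tested on simulated counts, and the thinning was checked on a part of the deposited cells. Promoter windows are from RefSeq and gene positions from GENCODE.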

Additional observations from a re-analysis of the deposited data

How the results depend on the processing

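With 1 library per condition, no library could be left out and no spread between cultures is known. No paired analysis was possible because each condition has 1 library and no result comes from a test. Of the values recomputed under an alternative, 128 stayed within the interval of the value given or within 1.5 times the count, 49 moved further, and no gene called at least 2-fold apart among the subunits changed sign. Small ratios could change sign, as RELA did. The log2 ratio of NFKB1 was 0.28 with TMM, 0.30 with DESeq2 size factors and 0.28 in G1 cells, and that of RELA 0.11, 0.12 and 0.049. NFKB2, REL and RELB stayed at least 2-fold higher under each scaling, averaging and choice of cells tried for the whole libraries, while REL in G1 cells of cluster 3 alone was 1.72-fold higher (log2 ratio 0.78, 0.06 to 1.58). The count of pathway genes at least 2-fold lower was 0 with TMM and 0 with DESeq2 size factors. Of all genes, 660 were at least 2-fold higher with a limit of CPM 1, 221 with CPM 20 and 1088 with no limit, against 394 at CPM 5, and 1060, 336 and 1496 were at least 2-fold lower, against 688.

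Shares of cells with a UMI scale with depth, by construction. Thinned to 7500 UMIs, they were 16.1% of vehicle and 16.2% of cytokine-treated cells for NFKB1, 2.87% and 26.5% for NFKB2, 2.80% and 6.35% for REL, 16.0% and 16.0% for RELA, and 20.6% of cytokine-treated cells for RELB. Without thinning they were 35.9% and 40.2% for NFKB1, 7.19% and 56.6% for NFKB2, 6.66% and 16.9% for REL, 36.5% and 37.5% for RELA, and 44.4% of cytokine-treated cells for RELB. At least 2 UMIs were held by 4.18% and 4.91% of cells for NFKB1, 0.387% and 13.7% for NFKB2, 0.0773% and 0.791% for REL, 4.72% and 4.12% for RELA, and 0% and 6.96% for RELB.

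In vehicle G1 cells NFKB1 gave 39.7% and REL 7.64% of subunit UMIs. In vehicle G1 cells of single clusters RELB was at 0 CPM in cluster 0 and at 0 CPM in cluster 3, NFKB1 at 21.1 CPM in cluster 1 and 16.6 CPM in cluster 3, and RELA at 21.5 CPM in cluster 1. The cause of these differences was not tested. At 7500 UMIs, REL and RELB had no UMI in the vehicle cells with TDO2, so the ratio could not be computed there.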

Other observations

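Only 40 cytokine-treated cells were called G2M, which was too few for the comparison by phase. In these cells NFKB1 was at 41.1 CPM (34 UMIs, exact 95% Poisson interval 28.5 to 57.4), NFKB2 at 45.9 CPM (38 UMIs, 32.5 to 63.0), RELB at 33.8 CPM (28 UMIs, 22.5 to 48.9), RELA at 26.6 CPM (22 UMIs, 16.7 to 40.3) and REL at 8.46 CPM (7 UMIs, 3.40 to 17.4).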
